A study of Mus musculus with 477 samples.

Results

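The fibroblast growth factor (FGF) receptor genes *Fgfr1*, *Fgfr2*, *Fgfr3* and *Fgfr4* and 6 genes that respond to FGF signaling, *Spry1*, *Spry2*, *Spry4*, *Etv4*, *Etv5* and *Dusp6*, were followed in single mammary cells. These 10 genes, of the 21004 genes in the count table, were chosen by name with values of these data known, namely the level of *Fgfr2* in virgin against pregnant luminal cells and the receptor levels in tumors. The values of the 4 receptors in those comparisons are therefore descriptions without a test. The SE printed with their edgeR differences was derived from the test statistic, so it is no test of these genes either. All 10 genes were found in the table, and 9 of them passed the filter on low counts in the pregnancy and tumor comparisons, while *Fgfr4* did not.

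Single cells had been isolated by microfluidics (Fluidigm C1) for full-length cDNA, and 477 cells in 10 groups were analysed, taken as 11 female mice. All mice carried *MMTV-Cre*, a recombinase driven by a promoter active in mammary epithelium, on a mixed C57BL/6 and 129/Sv background, and the luminal mice also carried the *ROSA mT/mG* reporter of Cre activity. Br mice were *Brca1* fl/fl, 53 mice were *Trp53* fl/+ without a floxed *Brca1* allele, and Br53 mice were *Brca1* fl/fl and *Trp53* fl/+. These genotypes are those of the study's methods, whereas its legend on flow cytometry of such strains gives *Trp53* fl/fl, and the sample labels do not settle it. No mouse without a floxed allele was analysed here. Luminal cells (L) were sorted as CD24Hi CD29Lo mGFP+ cells, so that they had undergone Cre recombination, from virgin (v) mice or mice at day 12.5 of pregnancy (p), both 3 to 4 months old. These were vBrL (35 cells), vBr53L (39), v53L (40), pBrL-1 (71), pBrL-2 (38), pBr53L (53) and p53L (36), each taken as 1 mouse. The labels give only the group, and pBrL was split by the prefix of its cell names (SC5 and SC6). The number of luminal mice per group is not given in the sources used here, so every n of mice rests on this reading. Tumor cells (T) were sorted as CD24+ cells from 1 tumor each, BrT1 (47 cells), BrT2 (37), Br53T1 (30) and Br53T2 (51). The mouse was the replicate, and counts were summed over its cells and scaled to counts per 1000000 reads of the mouse (CPM), with between 40338926 and 115827852 reads per mouse.

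FGF receptors are receptor tyrosine kinases at the cell surface that bind secreted FGF ligands together with heparan sulfate, and they signal mainly through the adaptor FRS2, RAS and the kinase ERK. ERK activity switches on the transcription factor genes *Etv4* and *Etv5* and a set of brakes on the same pathway: the Sprouty genes *Spry1*, *Spry2* and *Spry4*, and *Dusp6*, whose product dephosphorylates ERK. These response genes are also induced by other receptor tyrosine kinases. In the mammary gland, *Fgfr2* in the epithelium is known to be needed for ductal outgrowth, with ligands made in the surrounding stroma. The C1 counts are per gene, so the epithelial and mesenchymal splice forms of *Fgfr1* and *Fgfr2* were not told apart.

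The luminal label and the chips were checked first. The chip was read from the prefix of the cell names, such as SC6, and the labels do not say what this prefix stands for. Sharing a chip thus means sharing that prefix. The 6 pan-luminal markers (keratins 8, 18 and 19, *Epcam*, *Cdh1* and *Gata3*) summed to between 7590 and 12940 CPM in the 7 luminal mice and to between 4067 and 5949 in BrT2, Br53T1 and Br53T2. BrT1 stood apart with 576 CPM, 0 reads of *Cdh1* and *Krt19*, and 4955 CPM over 6 fibroblast genes, so its cells lacked defining epithelial markers. Br53T2 had 5335 CPM over 6 basal markers, against at most 375 CPM in every other mouse. Br53T2 shared chip SC6 with pBrL-2, but no other sample was on the chips of BrT1, BrT2 and Br53T1, where tumor and chip cannot be told apart. Virgin and pregnant mice of 1 genotype shared a chip in 2 cases, vBr53L with pBr53L on SC7 and v53L with p53L on SC9. Genotype and chip cannot be told apart among luminal mice.

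The promoter windows of 1 receptor and 3 response genes are shown because these genes carry contrasts described here: *Fgfr2* as the receptor that varied most between mice in log2(CPM + 1), *Spry2* and *Dusp6* as the response genes read in most cells, and *Etv5* as the response gene higher in every tumor. No window of *Fgfr1* is shown. Each is the 250 bases before a RefSeq start site on GRCm38.p6, 5′ to 3′ on the gene's strand, and capitals mark GGAA or its reverse complement, the core recognised by ETS factors such as ETV4 and ETV5. The windows are chr7:130266809-130267058 (minus strand, *Fgfr2*), chr14:105896820-105897069 (minus, *Spry2*), chr16:22438369-22438618 (minus, *Etv5*) and chr10:99262981-99263230 (plus, *Dusp6*). None of them overlapped an exon of GENCODE vM21. The bases just after the *Fgfr2* and *Etv5* windows were not found in a GENCODE transcript, whereas those after the *Spry2* and *Dusp6* windows were. A second RefSeq window of *Etv5*, whose following bases were found in one, overlaps 149 exon bases and is not shown, and it holds 0 cores.
Fgfr2: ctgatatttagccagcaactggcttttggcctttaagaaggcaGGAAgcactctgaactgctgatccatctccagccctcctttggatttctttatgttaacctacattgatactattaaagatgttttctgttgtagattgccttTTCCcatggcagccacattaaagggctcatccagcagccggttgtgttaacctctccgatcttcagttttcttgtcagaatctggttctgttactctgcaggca
Spry2: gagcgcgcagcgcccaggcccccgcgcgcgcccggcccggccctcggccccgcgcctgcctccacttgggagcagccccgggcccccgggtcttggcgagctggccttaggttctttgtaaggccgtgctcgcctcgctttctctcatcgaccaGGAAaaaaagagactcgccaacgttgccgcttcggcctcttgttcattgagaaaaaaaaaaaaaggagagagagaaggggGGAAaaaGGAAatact
Etv5: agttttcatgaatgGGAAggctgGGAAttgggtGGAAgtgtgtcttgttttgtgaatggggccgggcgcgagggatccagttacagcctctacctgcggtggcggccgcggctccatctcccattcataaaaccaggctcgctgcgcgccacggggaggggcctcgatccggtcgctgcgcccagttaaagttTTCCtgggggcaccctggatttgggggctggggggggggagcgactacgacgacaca
Dusp6: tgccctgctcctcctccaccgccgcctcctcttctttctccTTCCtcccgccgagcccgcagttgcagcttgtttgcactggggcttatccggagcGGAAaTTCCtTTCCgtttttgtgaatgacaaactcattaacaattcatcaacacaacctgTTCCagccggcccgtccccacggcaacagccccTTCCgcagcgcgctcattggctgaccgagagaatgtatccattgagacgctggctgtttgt
The core occurred 2 times in the *Fgfr2* window, 3 times in *Spry2*, 4 times in *Etv5* and 6 times in *Dusp6*. It is a short motif, found in 93.4% of 32851 promoter windows of this length with a median of 3 matches, so these matches are a description and not sites. The *Fgfr2* window was 44% G or C with 2 CpG dinucleotides, against 56.4% to 62.4% and 16 to 23 CpG in the other windows shown and medians of 52.4% and 6 over all windows. The longer letters TGAATGNA, the site of the repressor Capicua at *Etv* genes, were searched on both strands and were in none of the 4 windows and in 3.20% of all windows.

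*Fgfr2* (chromosome 7, minus strand, annotated span 130162451 to 133123350, with 314 exon bases shared with *Ctbp2*) was read at 111 CPM in vBrL and 44.9 in vBr53L, with 619 in v53L. In pregnant mice it was read at 3.22 CPM in pBrL-1, 2.00 in pBrL-2, 2.60 in pBr53L and 19.3 in p53L. All 3 virgin mice were above all 4 pregnant mice, with means of 259 ± 314 CPM (SD, n = 3) and 6.79 ± 8.38 (SD, n = 4). This is the comparison that chose the gene, and over all genes 3.99% were lower in every pregnant mouse than in every virgin mouse. In the edgeR fit with genotype as covariate the difference was -4.87 ± 0.41 (log2, SE), and in the 15 settings tried it lay between -5.20 and -4.47. It was present within both shared chips, 17.3-fold on SC7 and 32-fold on SC9.

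The few *Fgfr2* reads of pregnant mice came from very few cells. After each cell was thinned to 100000 reads, a read was found in 15 of 35 vBrL cells (42.9%, exact 95% binomial interval 26.3 to 60.6), 16 of 39 vBr53L cells (41%, 25.6 to 57.9) and 31 of 40 v53L cells (77.5%, 61.5 to 89.2). In pregnant mice it was found in 3 of 71 pBrL-1 cells (4.23%, 0.880 to 11.9), 2 of 38 pBrL-2 cells (5.26%, 0.644 to 17.7), 4 of 53 pBr53L cells (7.55%, 2.09 to 18.2) and 3 of 36 p53L cells (8.33%, 1.75 to 22.5). The shares thus ranged from 41% to 77.5% in virgin and from 4.23% to 8.33% in pregnant mice. Without thinning they ran from 54.3% to 85% and from 7.55% to 18.4%. At 5 reads or more after thinning they ran from 20.5% to 67.5% and from 0% to 4.23%. The level of 19.3 CPM in p53L rested on a single cell that held 95.8% of its *Fgfr2* reads, and the 3 highest cells held 93.1% or more in each pregnant mouse, against 27.3% to 60.3% in virgin mice. These intervals cover counting error only, and reads without molecular identifiers are not independent molecules.

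**Figure D1:**
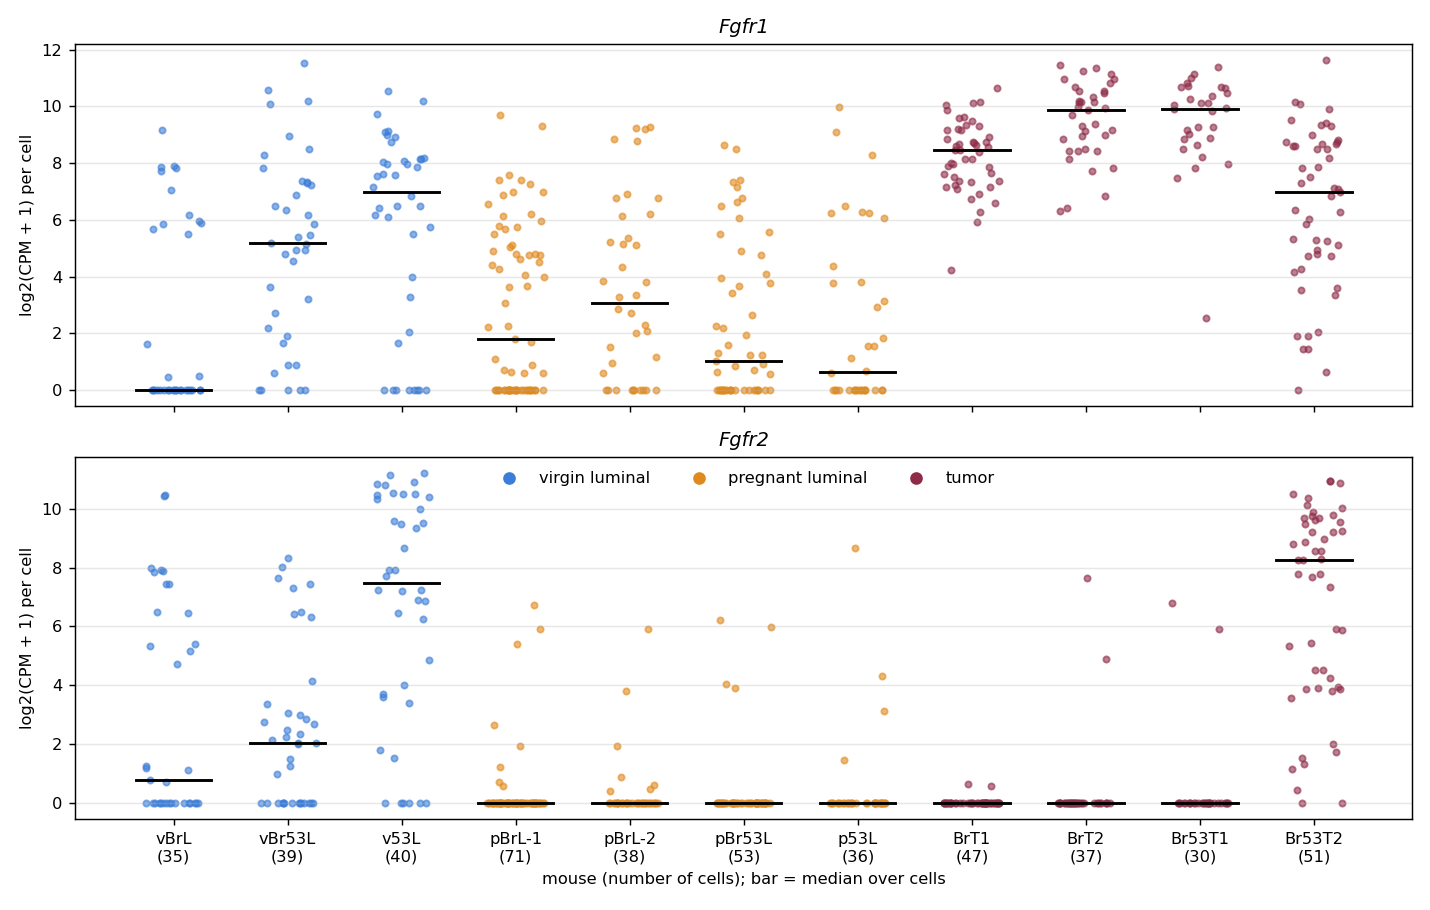
Level of *Fgfr1* (top) and *Fgfr2* (bottom) in each of 477 cells as log2(CPM + 1), by mouse with the number of cells in brackets; each point is a cell and each bar the median over the cells of a mouse. The median for *Fgfr2* was 0 CPM in all 4 pregnant mice and in BrT1, BrT2 and Br53T1, 179 CPM in v53L and 303 CPM in Br53T2.

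Within each virgin mouse, *Fgfr2* was read in a larger share of the cells that expressed genes of hormone-sensing luminal cells, the cells of the ducts that carry the receptors for estrogen, progesterone and prolactin. Cells with a read of at least 4 of 8 markers of that type (*Esr1*, *Pgr*, *Prlr*, *Foxa1*, *Cited1*, *Ly6a*, *Prom1* and *Tbx3*, a limit set after the values were seen) had *Fgfr2* in 9 of 9 cells in vBrL, 6 of 7 in vBr53L and 24 of 24 in v53L. Cells with fewer markers had it in 6 of 26 (23.1%), 10 of 32 (31.2%) and 7 of 16 (43.8%). Over summed reads, *Fgfr2* was at 334, 151 and 857 CPM in the former cells and at 44.2, 16.9 and 217 CPM in the latter, higher with more markers in all 3 mice. The limit fell in a gap in vBrL, with 0 cells at 3 or 4 markers, but not in vBr53L, with 9 cells at 3 and 3 cells at 4.

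The pregnant mice held few such cells. At least 4 markers were read in 0 of 71 cells of pBrL-1, 1 of 38 of pBrL-2, 1 of 53 of pBr53L and 2 of 36 of p53L, against 25.7% of cells in vBrL and 17.9% in vBr53L, with 60% in v53L. Of those 4 cells in pregnant mice, 2 had an *Fgfr2* read. The 8 markers summed to between 922 and 5440 CPM in virgin mice, with none at 0, and to between 222 and 361 CPM in pregnant mice, where *Cited1* was at 0 in pBrL-1 and *Foxa1* in pBrL-2. *Prlr* was the largest part of these sums, at 525 to 3713 CPM in virgin and 162 to 221 CPM in pregnant mice. The 6 fibroblast genes also did not overlap between stages, at 712, 579 and 176 CPM in virgin mice, nearly all of it *Dcn*, with 3 to 4 of the genes at 0, and at 25.4, 0.117, 0.606 and 1.72 CPM in pregnant mice. The luminal progenitor and alveolar genes went the other way without overlap, at 19976 to 35868 CPM in virgin and 54443 to 78758 CPM in pregnant mice. So did the 6 basal markers, at 0 to 69.5 CPM in virgin and 88.5 to 375 CPM in pregnant mice. The part of these lists in the *Fgfr2* difference was not tested, and fewer cells of a type and less RNA per cell cannot be told apart in the summed counts. Outside the cells with at least 4 markers, a read of *Fgfr2* was still seen in 23.1% to 43.8% of virgin cells and in 4.23% to 5.88% of pregnant cells.

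Across the cells of a mouse, the level of *Fgfr2* was higher where the summed markers of that type were higher, with a Spearman rho of 0.56 in vBrL (35 cells), 0.69 in vBr53L (39) and 0.70 in v53L (40). Against the 10 luminal progenitor and alveolar genes, which include the milk proteins, rho was -0.30, -0.31 and -0.55. The fibroblast and proliferation lists also had positive values in all 3 mice, with 0.31, 0.71 and 0.45 for the 6 fibroblast genes and 0.16, 0.50 and 0.40 for the 8 proliferation genes. In vBr53L the value for the fibroblast genes was as high as that for the hormone-sensing markers. Cells of a mouse share a library preparation, and *Fgfr2* also went with the number of detected genes per cell, with rho of 0.36, 0.71 and 0.42, but less with reads per cell, with rho of 0.03, 0.13 and 0.18. Over 8925 genes, the mean rho with *Fgfr2* within the 3 virgin mice was highest for *Wdfy3* (0.63), *Ptn* (0.63), *Prlr* (0.63), *Cdo1* (0.62) and *Alcam* (0.62). *Ptn* encodes the growth factor pleiotrophin, *Prlr* the prolactin receptor and *Alcam* a cell adhesion molecule. Over the 11 mice, among 8729 genes, Pearson's r of log2(CPM + 1) with *Fgfr2* was highest for *Bmp3* (0.91), *Ccdc191* (0.90), *Ctse* (0.90), *Gng12* (0.88) and *Zfp990* (0.88), and with 10 CPM added in place of 1 only *Ctse* and *Ccdc191* stayed among the first 5.

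**Figure D2:**
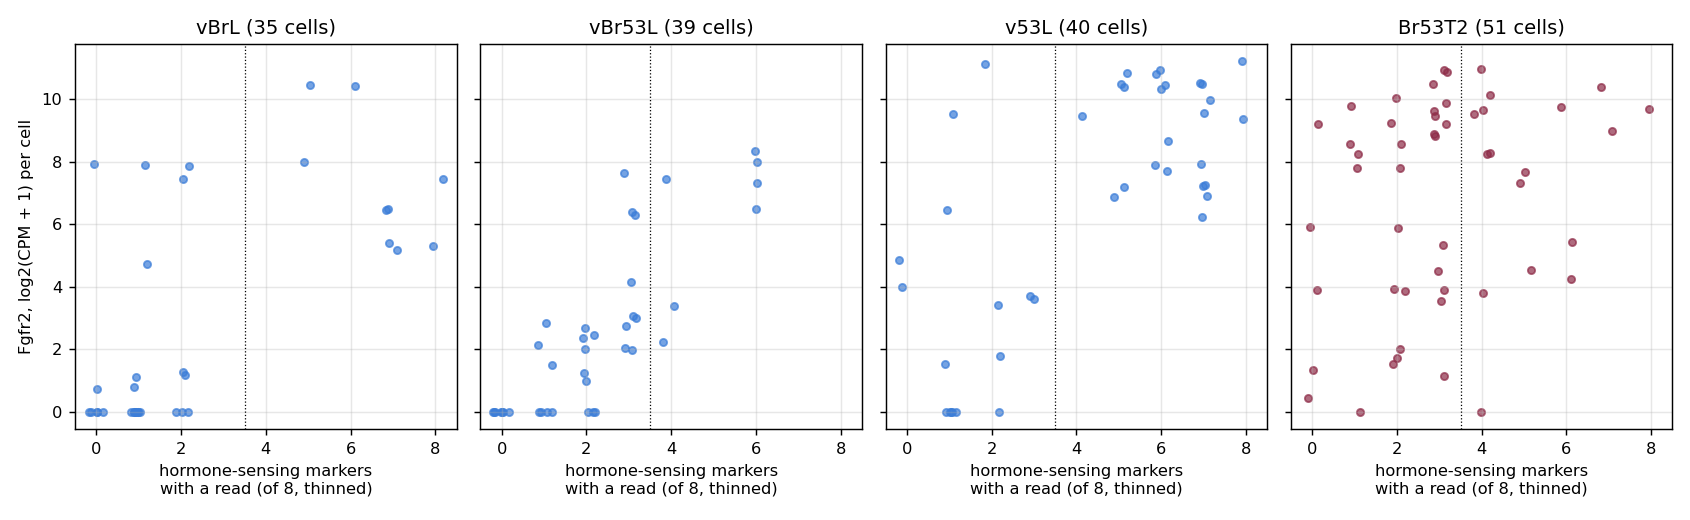
*Fgfr2* level per cell, log2(CPM + 1), against the number of 8 hormone-sensing markers with a read after thinning (jittered sideways), for the 3 virgin mice and the tumor Br53T2; the dotted line separates cells with at least 4 markers. In v53L all 24 cells right of the line had an *Fgfr2* read, and in Br53T2 15 of 17 cells right of it and 28 of 34 cells left of it had one, with a Spearman rho of 0.48 with the summed markers.

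*Fgfr1* (chromosome 8, plus strand, 25513654 to 25575718) was present in every mouse. In luminal cells it had 59.5 CPM in vBrL and 228 in vBr53L, with 230 in v53L, and 49 in pBrL-1, 93 in pBrL-2, 34.9 in pBr53L and 61.5 in p53L. The 2 highest luminal mice were virgin, but vBrL lay among the pregnant mice. The mean was 172 ± 97.8 CPM (SD, n = 3) in virgin and 59.6 ± 24.8 (SD, n = 4) in pregnant mice, and the fitted difference was -1.35 ± 0.63 (log2, SE). Within SC7 it was 6.52-fold and within SC9 3.74-fold higher in the virgin mouse. A read was found in 37.1% to 72.5% of the cells of a virgin mouse and in 33.3% to 55.3% of those of a pregnant mouse, so that the shares of *Fgfr1* overlapped between the stages whereas those of *Fgfr2* did not.

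*Fgfr3* and *Fgfr4* were sparse in luminal cells. *Fgfr3* (chromosome 5) had 0.534 CPM in vBrL, 21 in vBr53L, 32.1 in v53L, 6.28 in pBrL-1, and at most 0.175 in the other pregnant mice. The 3 highest cells held at least 99.6% of these reads in every luminal mouse, so its fitted pregnancy difference of -6.38 ± 4.19 (log2, SE) describes few cells. *Fgfr4* (chromosome 13) had 0 reads in 8 of 11 mice, where a count of 0 allows up to 0.0259 to 0.0744 CPM, and its highest value was 1.54 CPM in pBrL-2. Of the exon bases of *Fgfr3*, 998 lie opposite another annotated transcript, as do 710 of *Spry1* and 164 of *Fgfr1*, and since the use of strand in counting was not given in the sources used here, reads there cannot be told apart.

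To compare the receptors with each other, CPM was divided by the kilobases of the union of annotated exons, and each receptor was expressed as a percent of the 4 summed. In virgin mice *Fgfr2* made up 63.9% in vBrL and 14.3% in vBr53L, with 68.3% in v53L, and *Fgfr1* 35.7%, 76% and 26.5%. In pregnant mice *Fgfr1* made up 80.7% in pBrL-1, 93.6% in pBrL-2, 90.1% in pBr53L and 76.6% in p53L, a mean of 85.3% ± 7.95 (SD, n = 4). The summed level of the 4 receptors per length was 16.9, 30.3 and 87.7 CPM per kb in virgin and between 3.92 and 10.1 CPM per kb in pregnant mice. Pregnant cells thus had less receptor RNA in sum, and the larger part of it was *Fgfr1*.

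**Figure D3:**
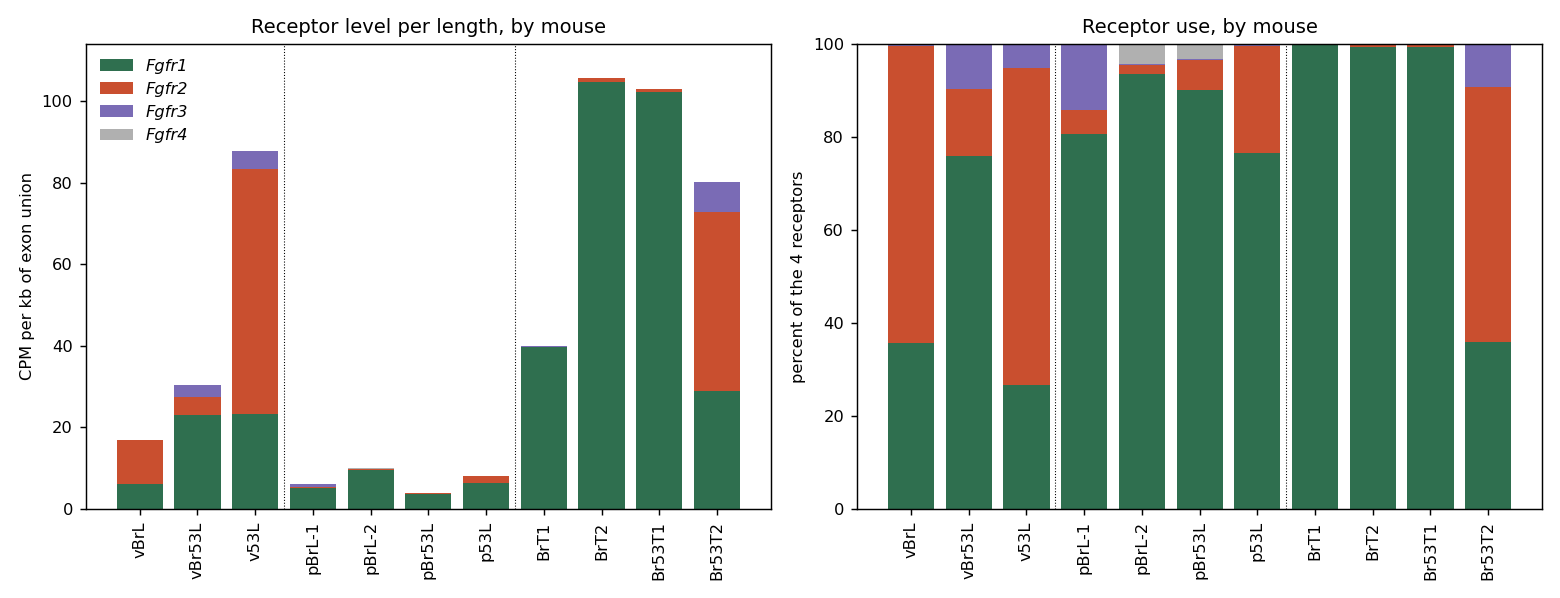
Receptor levels by mouse in CPM per kb of annotated exon (left, stacked) and as a percent of the 4 receptors (right); dotted lines separate virgin, pregnant and tumor mice and each bar is 1 mouse. *Fgfr1* made up at least 99.3% in BrT1, BrT2 and Br53T1 but 35.9% in Br53T2.

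In the tumors, *Fgfr1* had 392 CPM in BrT1 and 1034 in BrT2, with 1010 in Br53T1 and 284 in Br53T2. All 4 tumors were above all 7 luminal mice, of which the highest had 230 CPM, and the tumor mean was 680 ± 398 (SD, n = 4) against 92.8 ± 78.4 (SD, n = 5) in the *Brca1*-deficient luminal mice. The fitted difference was 2.76 ± 0.63 (log2, SE), between 2.09 and 3.44 over 18 settings. Receptor use in tumors was among the values that chose these genes, and 3.56% of all genes were higher in every tumor than in every *Brca1*-deficient luminal mouse. After thinning, *Fgfr1* was read in all 47 cells of BrT1, all 37 of BrT2 and all 30 of Br53T1, and in 46 of 51 cells of Br53T2. The median cell had 350 CPM in BrT1, 932 in BrT2 and 972 in Br53T1, above the luminal medians of 0 to 127.5 CPM. In Br53T2 the median cell had 125 CPM, within the luminal range, and 3 cells held 40.4% of the *Fgfr1* reads. Within SC6 *Fgfr1* was 3.05-fold higher in Br53T2 than in pBrL-2.

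*Fgfr2* split the tumors. It had 0.0221 CPM in BrT1 (2 reads) and 7.97 in BrT2, with 5.85 in Br53T1 and 454 in Br53T2. A read was found in 0 of 47 cells of BrT1 (a limit of 3 cells allows a share of up to 6.38%, and the exact 95% upper bound is 7.55%), in 2 of 37 cells of BrT2, 2 of 30 of Br53T1 and 43 of 51 of Br53T2 (84.3%, exact 95% interval 71.4 to 93). Br53T2 was 227-fold above pBrL-2 on the same chip and below v53L, the highest luminal mouse. With all 4 tumors the fitted difference from *Brca1*-deficient luminal mice was 1.66 ± 1.80 (log2, SE), and without Br53T2 it was -2.89, so its direction rested on that tumor. Its sign also turned when the *Trp53*-only luminal mice were added to the reference.

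Receptor use in tumors followed from these levels. Per length, *Fgfr1* made up 99.8% in BrT1, 99.3% in BrT2 and 99.4% in Br53T1, whereas in Br53T2 *Fgfr2* made up 54.8%, *Fgfr1* 35.9% and *Fgfr3* 9.32%. *Fgfr3* had 53.5 CPM in Br53T2, its highest value in any mouse, with a read in 31.4% of cells, and at most 0.711 CPM in the other tumors. Of the 51 cells of Br53T2, 39 had reads of both *Fgfr1* and *Fgfr2*, 7 of *Fgfr1* without *Fgfr2*, 4 of *Fgfr2* without *Fgfr1* and 1 of neither, and 13 cells had *Fgfr1*, *Fgfr2* and *Fgfr3*. Receptors were thus read together within single cells of that tumor. It was also the tumor with the most hormone-sensing marker RNA, 2257 CPM against at most 501 in the other tumors. Most of this sum was *Prlr* (1161 CPM) and *Ly6a* (762 CPM), and *Ly6a* alone had 406 CPM in Br53T1, the next tumor. *Fgfr2* was read in 15 of 17 of its cells with at least 4 of those markers, at 536 CPM, and in 28 of 34 cells with fewer, at 416 CPM. The limit fell where cells were dense, with 14 cells at 3 markers and 8 at 4, and across the 51 cells Spearman's rho of *Fgfr2* with the summed markers was 0.48.

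**Figure D4:**
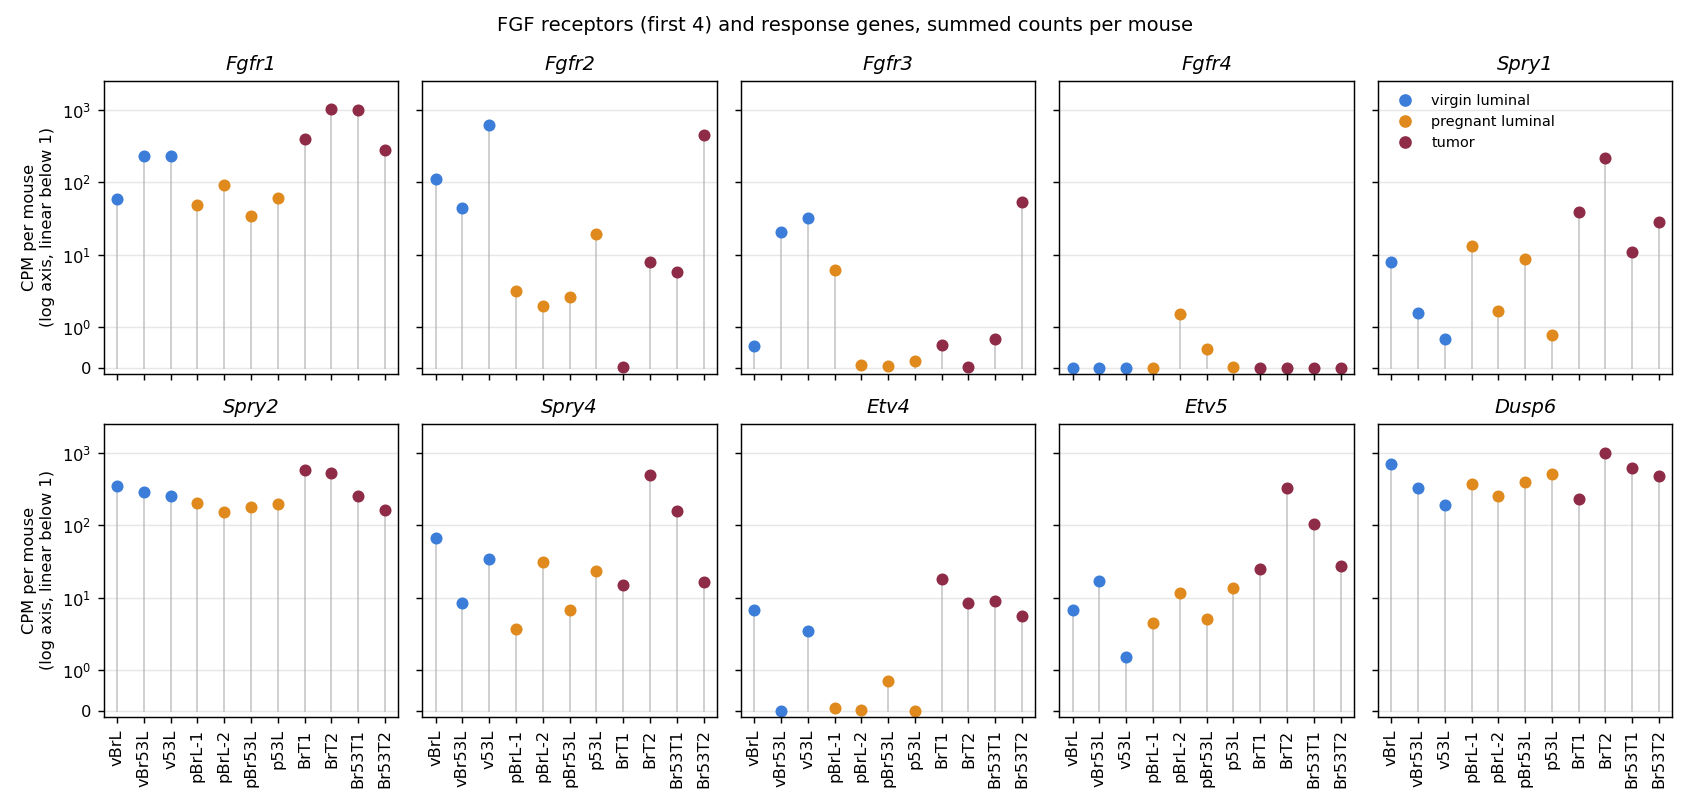
Level of the 4 receptors and 6 response genes in each of 11 mice, CPM of summed counts on a log axis that is linear below 1; each point is 1 mouse, colored by stage. *Fgfr1* and *Etv5* were higher in all 4 tumors than in all 7 luminal mice, and *Fgfr2* and *Spry2* were lower in all 4 pregnant than in all 3 virgin mice.

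The response genes were then examined, beginning with pregnancy. *Spry2* (chromosome 14), which encodes a Sprouty inhibitor of RAS and ERK signaling, had 346 CPM in vBrL and 285 in vBr53L, with 254 in v53L. It had 206 CPM in pBrL-1, 150 in pBrL-2, 177 in pBr53L and 194 in p53L, lower in every pregnant mouse than in every virgin mouse. The difference of -0.66 ± 0.28 (log2, SE) did not pass edgeR's quasi-likelihood test (adjusted p = 0.501), nor DESeq2 (adjusted p = 0.191). *Dusp6* (chromosome 10), the ERK phosphatase, had between 191 and 697 CPM in virgin and between 255 and 508 CPM in pregnant mice, with a difference near 0 (0.01 ± 0.49, log2, SE) whose sign turned with RLE or library size scaling. *Dusp6* was 2.66-fold higher in p53L than in v53L on SC9 and 1.19-fold higher in pBr53L than in vBr53L on SC7.

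None of the 6 response genes was called in the pregnancy comparison, by edgeR or by DESeq2, and 1 had an unadjusted edgeR p under 0.05 (*Spry2*). Over all genes edgeR called 0.0159% and DESeq2 8.86%. The edgeR adjusted p-values of the 6 genes ran from 0.501 to 0.998, and their median difference was -0.33 (log2) beside 0.12 over all 12615 genes tested, but 0.22 with chip as block and 0.19 without vBrL. *Spry2* and *Fgfr2* were the 2 of 10 genes that did not overlap between stages, both lower in every pregnant mouse as were 3.99% of all genes, and no gene of the 10 was higher in every pregnant mouse, where 4.73% of all genes were. *Spry1* (0.719 to 13.3 CPM), *Spry4* (3.74 to 66.3), *Etv4* (0 to 6.72) and *Etv5* (1.51 to 16.9) were low in luminal mice of both stages, and a read of *Etv4* was found in at most 2.86% of the cells of any luminal mouse. Whether a pregnancy difference varied with genotype was tested for the 6 response genes with an interaction term, and none passed, with the lowest edgeR adjusted p at 0.155 for *Dusp6*. Only pBrL had 2 mice in that fit, which leaves 1 residual degree of freedom, so not passing says little.

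In tumors, *Etv5* (chromosome 16) stood out among the response genes. It had 24.7 CPM in BrT1 and 327 in BrT2, with 105 in Br53T1 and 27.2 in Br53T2, and between 1.51 and 16.9 CPM in the 7 luminal mice, so every tumor was above every luminal mouse. A read was found in 48.9%, 86.5%, 66.7% and 35.3% of the cells of these tumors and in at most 20.5% of the cells of a luminal mouse. The difference from *Brca1*-deficient luminal mice was 3.71 ± 0.84 (log2, SE), which edgeR did not call (adjusted p = 0.0695) and DESeq2 did (adjusted p = 5.19e-04). It was also called by limma on the mean CPM over cells (adjusted p = 0.0461) and by edgeR against all 7 luminal mice (adjusted p = 0.0355), and without BrT2 it was 2.33 (edgeR adjusted p = 0.193).

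*Spry1* and *Spry4* differed more between tumors. *Spry1* (chromosome 3) had 38.6 CPM in BrT1 and 216 in BrT2, with 10.9 in Br53T1 and 28.4 in Br53T2, with 13.3 as the highest luminal value, and a difference of 3.42 ± 0.98 (log2, SE, edgeR adjusted p = 0.154, DESeq2 adjusted p = 0.00915). Without BrT2 it was 1.75 (edgeR adjusted p = 0.440). Reads of *Spry1* were in 89.2% of BrT2 cells but in 16.7% to 44.7% of the cells of the other tumors. *Spry4* (chromosome 18) had 490 CPM in BrT2 and 156 in Br53T1, but 15 in BrT1 and 16.7 in Br53T2, within the luminal range of 3.74 to 66.3 CPM. A single cell held 53.3% of its reads in BrT2, where the median cell had 61.3 CPM, and 82.5% in vBrL, the highest luminal mouse. Its difference of 2.85 ± 1.14 (log2, SE) had an adjusted p of 0.294 by edgeR, and without BrT2 it was 1.24 (edgeR adjusted p = 0.670). The *Spry4* reads were found in 73% of BrT2 cells and 66.7% of Br53T1 cells, against 17.0% in BrT1 and 13.7% in Br53T2.

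The remaining response genes had smaller differences or lower levels. *Etv4* (chromosome 11), a close relative of *Etv5*, had 18.3 CPM in BrT1 and 8.41 in BrT2, with 9.06 in Br53T1 and 5.54 in Br53T2, with a read in 13.3% to 25.5% of tumor cells, and a difference of 2.64 ± 1.76 (log2, SE, edgeR adjusted p = 0.551). *Spry2* had 583 CPM in BrT1 and 528 in BrT2, above every luminal mouse, but 255 in Br53T1 and 164 in Br53T2 (0.59 ± 0.43, log2, SE, edgeR adjusted p = 0.588). *Dusp6* had 234 CPM in BrT1 and 1008 in BrT2, with 613 in Br53T1 and 473 in Br53T2 (0.41 ± 0.46, log2, SE, edgeR adjusted p = 0.744), and without BrT2 the difference was -0.10. *Dusp6* and *Spry2* were read in at least 86.3% of the cells of every tumor, as they were in at least 70% of the cells of every luminal mouse.

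In sum over the 6 response genes, all 6 fitted tumor differences were above 0, with a median of 2.75 (log2) beside 0.06 over all 12978 genes tested. Without BrT2 the median was 1.49 with 5 of 6 above 0, and without vBrL it was 3.55. edgeR called none of them, with 3 at an unadjusted p under 0.05, and DESeq2 called *Etv5* and *Spry1*; over all genes edgeR called 0.609% and DESeq2 9.4%. *Etv5* and *Fgfr1* were the 2 of 10 genes with no overlap from the *Brca1*-deficient luminal mice, both higher in every tumor as were 3.56% of all genes, and none of the 10 was lower in every tumor, where 1.73% of all genes were. By tumor, 6 of 6 response genes were above every luminal mouse in BrT2, 4 in BrT1, 3 in Br53T1 and 2 in Br53T2, where 20.3%, 27.4%, 23.9% and 23.1% of 12908 genes (mean over mice of 1 CPM or more) were. The tumor difference was not shown to vary with *Trp53* genotype for any of the 6 response genes (interaction, lowest edgeR adjusted p = 0.983).

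**Figure D5:**
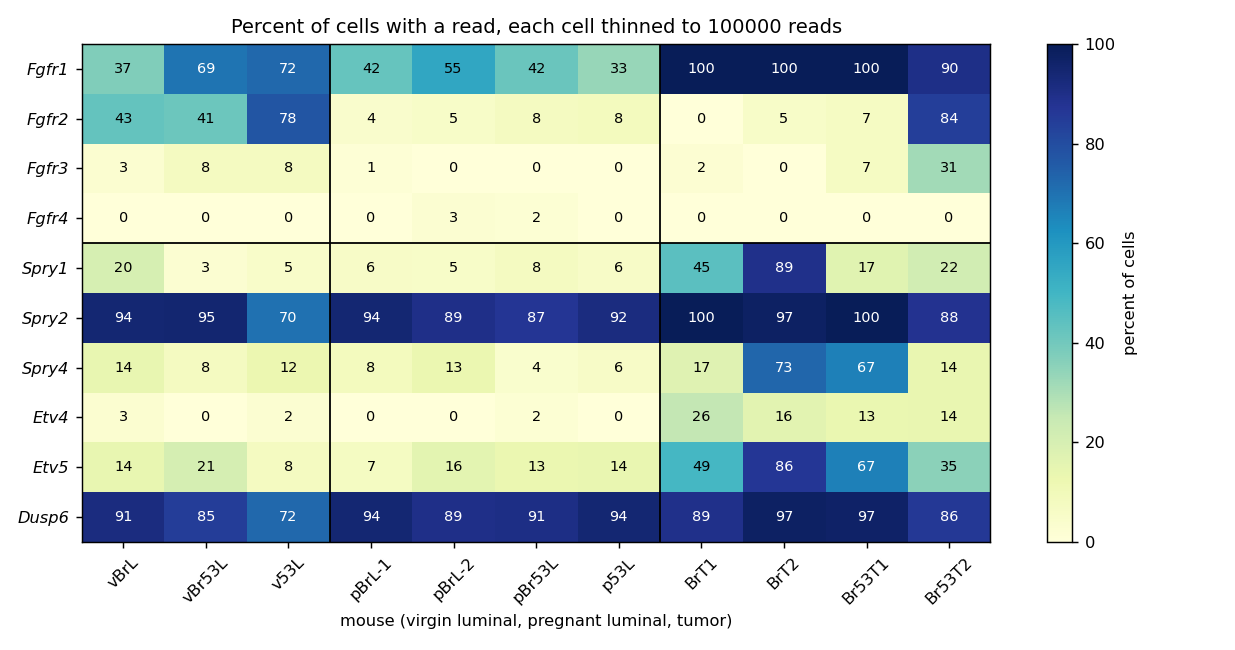
Percent of cells with at least 1 read of each gene after thinning every cell to 100000 reads, by mouse, with receptors above the horizontal line and response genes below it. *Spry2* and *Dusp6* were read in most cells of every mouse, whereas *Spry1*, *Spry4*, *Etv4* and *Etv5* were read in at most 20.5% of the cells of any luminal mouse.

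Within single tumors, receptor and response gene levels were only loosely related from cell to cell. Spearman's rho between *Fgfr1* and a response gene, over 22 pairs of tumor and gene with at least 10 expressing cells, ran from -0.35 to 0.28 with a median of 0.06. In Br53T2, rho between *Fgfr2* and the 6 response genes ran from -0.35 (*Spry4*) to 0.08 (*Spry1*) over 51 cells. Weak values like these are given as descriptions only, since counts per cell are sparse. In the virgin mouse v53L, *Fgfr2* had a rho of -0.39 with *Dusp6* and -0.45 with *Spry2* over 40 cells, in vBrL these were -0.15 and -0.30 over 35 cells, and in vBr53L they were 0.11 and 0.10 over 39 cells.

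The genotype comparison uses the same luminal values of *Fgfr2* that were known when the genes were chosen, so for this gene it is a description without a test. *Fgfr2* was lower in *Brca1*-deficient luminal mice within each stage, 111 and 44.9 against 619 CPM in virgin and 2.00 to 3.22 against 19.3 CPM in pregnant mice. With stage as covariate the difference was -3.10 ± 0.39 (log2, SE). It lay between -3.40 and -2.44 over the 13 settings tried. Only v53L and p53L carried no floxed *Brca1* allele, both on SC9, and the p53L value rested on 1 cell. The hormone-sensing markers differed alongside, at 5440 CPM in v53L against 1815 in vBrL and 922 in vBr53L and at 361 CPM in p53L against 222 to 283 in the other pregnant mice. The proliferation genes summed to 29.8 CPM in v53L and 370 in p53L, against 548 to 940 CPM in *Brca1*-deficient luminal mice. Within each stage the *Trp53*-only mouse also had the highest sum of luminal progenitor and alveolar genes and the lowest of basal markers. The part of these lists was not tested. Over all genes edgeR called 0% (818 at an unadjusted p under 0.05) and DESeq2 6.17%. *Spry1* was the only one of the 10 genes whose groups did not overlap, at 1.56 to 13.3 CPM in *Brca1*-deficient mice and 0.719 and 0.807 CPM in *Trp53*-only mice (2.86 ± 1.68, log2, SE, edgeR adjusted p = 0.778), where 6.19% of all genes were higher and 2.62% lower without overlap. The *Spry1* values rested on few cells. In vBr53L, 1 cell held 99.1% of its 106 reads, and v53L and p53L had 29 and 37 reads. None of the 6 response genes was called by edgeR, with 0 at an unadjusted p under 0.05, nor by DESeq2.

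FGF ligands were scarce in these libraries. Of 15 secreted FGF genes in the table, 2 reached 10 CPM in any mouse, 11 had reads but stayed below that, and 2 had no read. *Fgf1*, which binds all FGF receptors, had between 2.77 and 61.8 CPM in luminal mice and 0.0110 CPM in BrT1 and 30.8 in BrT2, with 42 in Br53T1 and 25.5 in Br53T2. *Fgf2*, basic FGF, had 22.4 CPM in BrT1 and 28.7 in Br53T2 and at most 6.82 CPM in every other mouse. *Fgf15*, the next in mean level, had 8.82 CPM in Br53T2 and 0.521 in BrT2 and no read elsewhere. Neither *Fgf1* nor *Fgf2* passed the edgeR test for tumors (adjusted p = 0.849 and 0.606) or for pregnancy (adjusted p = 0.989 and 0.709).

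Coreceptors and extracellular modulators were led by the heparan sulfate carriers *Sdc4*, at 4720 to 18404 CPM, and *Sdc1*, and by *Flrt3*, a membrane protein that binds FGF receptors. Of 10 such genes tested in tumors, edgeR called 0, with 9 fitted differences above 0 and a median of 1.27 (log2) beside 0.06 over all genes. *Sdc1* had 204 CPM in BrT1 and 11.2 in BrT2, with 252 in Br53T1 and 310 in Br53T2, against 26.4 to 60.1 CPM in luminal mice (2.10 ± 0.66, log2, SE, edgeR adjusted p = 0.186). *Fgfrl1*, a receptor relative without a kinase domain, had 49, 71.1, 52.8 and 14.3 CPM in the tumors and at most 9.46 in luminal mice (3.38 ± 1.13, log2, SE, edgeR adjusted p = 0.209). DESeq2, which called 9.4% of all genes, called these 2 of the 10 (adjusted p = 0.0491 for *Sdc1* and 0.0267 for *Fgfrl1*), which for *Fgfrl1* led to its being named after its values were seen. In pregnancy edgeR called 0 of 9, with a median of 0.20 beside 0.12 over all genes, and DESeq2, which called 8.86% of all genes, called 2 of 14, *Klb* and *Flrt2*, which had reads in 1 and 2 of the 4 pregnant mice and 0 reads in every virgin mouse.

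The relay from receptor to ERK gave no call by edgeR. Of 19 adaptor and kinase genes tested in tumors edgeR called 0 (4 at an unadjusted p under 0.05), with a median of 0.26 (log2) beside 0.06 over all genes, and in pregnancy 0 of 19 (0 at an unadjusted p under 0.05), with a median of -0.19 beside 0.12. *Nras* had the highest level of this list, from 737 to 1402 CPM over the 11 mice, with differences of -0.12 ± 0.29 in tumors and -0.36 ± 0.23 in pregnancy (log2, SE). *Braf* had between 104 and 338 CPM. DESeq2 called *Plcg1*, which encodes a phospholipase activated by these receptors (1.92, adjusted p = 0.0160), and *Mapk3*, which encodes ERK1 (1.07 by edgeR, DESeq2 adjusted p = 0.0330), as higher in tumors, 2 of 19 where it called 9.4% of all genes, and no gene of this list in pregnancy.

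Other ERK feedback and target genes gave 12 of 17 fitted differences above 0 in tumors, with a median of 0.61 (log2) beside 0.06 over all genes, and none was called by edgeR, with 4 at an unadjusted p under 0.05. *Ier3*, an immediate early gene, had 304, 406, 1597 and 335 CPM in the tumors in the order BrT1, BrT2, Br53T1 and Br53T2, all above the luminal mice at 31.5 to 153 CPM (2.54 ± 0.59, log2, SE, edgeR adjusted p = 0.0754). *Egr1* (0.67 ± 0.48) and *Myc* (-0.43 ± 0.38) had adjusted p-values of 0.583 and 0.669 by edgeR. DESeq2 called 3 of 17, beside 9.4% of all genes: *Ier3*, *Spred1*, a Sprouty-related inhibitor (1.75, adjusted p = 3.87e-04), and *Etv1*, the third member of the *Etv4* and *Etv5* family (6.72, adjusted p = 0.00879). *Etv1* had 98.2 CPM in BrT2, 12.3 in Br53T1, 6.01 in BrT1 and 1.94 in Br53T2, and it was at 10.3 CPM in v53L but at most 0.909 in every other luminal mouse. In pregnancy edgeR called 0 of these 17 genes (2 at an unadjusted p under 0.05) and DESeq2 0.

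Among other receptor tyrosine kinases, 5 of 10 fitted tumor differences were above 0 and 5 below, with a median of 0.19 (log2) beside 0.06 over all genes, and edgeR called 0 (2 at an unadjusted p under 0.05). *Erbb3*, *Met* and *Kit* had the highest levels of this list, and in BrT1 *Erbb3* had 0.155 CPM and *Kit* 0.188 CPM, against at least 35.6 CPM of either gene in every other mouse. DESeq2 called 2 of 11, beside 9.4% of all genes, *Axl* (6.36, adjusted p = 8.91e-07), at 473 CPM in BrT1 and 25.9 to 91.3 CPM in the other tumors against at most 6.07 CPM in luminal mice, and *Pdgfrb*, at 83 CPM in BrT1 and at most 4.81 CPM elsewhere. In pregnancy edgeR called 0 of 9 (2 at an unadjusted p under 0.05) and DESeq2 0. In the genotype comparison all 5 lists had 0 edgeR calls, and DESeq2, which called 6.17% of all genes, called 2 genes over the 5 lists, *Epha4* and *Erbb2*, both higher in *Brca1*-deficient luminal mice (2.57 and 1.81, log2, both with an adjusted p of 0.0277).

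Markers of other cell types varied along with some of these values. In BrT1, the tumor with the lowest *Fgfr2* and 4 response genes above the luminal range, 6 mesenchymal genes summed to 9458 CPM, whereas BrT2 had 6542, Br53T2 569 and Br53T1 159 CPM and luminal mice at most 104. BrT2, with all 6 response genes above that range, had 6200 CPM of *Fn1* and 0.140 CPM over the fibroblast genes. Endothelial and immune markers summed to at most 9.62 and 0.419 CPM in the tumors, while pBr53L had 238 CPM of immune markers. The 8 proliferation genes ranged from 202 to 2350 CPM in tumors and from 29.8 to 940 CPM in luminal mice. Their part in the receptor and response gene values was not tested.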

How the data were processed

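Cells had been prepared on Fluidigm C1 chips and sequenced by the authors, whose deposited table holds raw read counts per gene and cell, without molecular identifiers. The submitters' processing notes name Trim Galore 0.4.1, STAR 2.5.3a, Subread 1.5.3 and mm10, and the annotation, strand setting and filters on cells are not given in the sources used here. Capture sites had been inspected for doublets by microscope, whether any were removed is not stated, and no doublet caller was run here. Members and gene lists were chosen with earlier results of these data known. Counts were summed per mouse and tested over all genes with edgeR 4.0.16 (quasi-likelihood, TMM, filterByExpr, R 4.3.3) with Benjamini-Hochberg adjustment at 0.05, with genotype as covariate for pregnancy and stage for genotype. The SE of an edgeR difference is its absolute value divided by the square root of the quasi-likelihood F statistic. DESeq2 1.42.0 and limma 3.58.1 were alternatives. For shares of cells, each cell was thinned to 100000 reads, and a count of 0 was given an upper limit of 3 reads or cells. Intervals are exact binomial at 95%. Genes named beyond the 10 were the 3 highest by mean level of each list, edgeR calls, and the 5 genes most like *Fgfr2* with a mean of at least 10 CPM over mice or reads in at least 10% of virgin cells (gene models named Gm or ending in Rik left out). One gene that this rule names is not reported here. DESeq2 calls were named after their values were seen. Exon lengths came from GENCODE vM21, which matched 20885 of 21004 symbols, and promoter windows from RefSeq. The edgeR step was tested on simulated data. *Fgf4*, *Fgf5*, *Fgf20* and *Spry3* were not analysed here.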

Additional observations from a re-analysis of the deposited data

Results flagged for a closer look

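In 5 of 39 sets of values, 1 mouse stood apart by Dixon's ratio of its gap to the range, computed on log2(CPM + 1). A rate of 1 in 20 sets would give about 1.95, but it assumes independent sets of evenly spread values. These sets share mice, hold values near 0 and include receptor values that chose the genes. No excess over chance can therefore be read from the count of 5. Among pregnant mice, pBrL-1 stood apart for *Fgfr3* (ratio 0.937), at 6.28 CPM with the next mouse at 0.175 CPM, and 99.6% of its reads came from 1 cell. Among pregnant mice pBr53L stood apart for *Etv4* (ratio 0.894), at 0.735 CPM with the next at 0.0604, all of it from 1 cell. Among tumors, Br53T2 stood apart for *Fgfr3* (ratio 0.870), at 53.5 CPM with the next at 0.711, and its reads were found in 31.4% of its cells. Receptor levels in tumors were among the values that chose these genes, so this ratio is a description only. Among all luminal mice, pBrL-2 stood apart for *Fgfr4* (ratio 0.597), at 1.54 CPM with the next at 0.457, all of it from 1 cell. Among *Brca1*-deficient luminal mice, vBrL stood apart for *Etv4* (ratio 0.730), at 6.72 CPM with the next at 0.735, and 97.9% of its reads came from 1 cell.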

How the results depend on the processing

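Counts of called genes depended strongly on the tool and the filter. For pregnancy, the 2 genes of the edgeR fit became 1285 with DESeq2, 366 with no low-count filter, 40 with limma on the mean CPM over cells, 17 without the genotype covariate and 42 with chip as block, and 0 to 4 when single mice were left out. For tumors, 79 became 1334, 129 and 352 with the first 3 of these, 124 with library size alone (chosen after seeing the data), 213 against all 7 luminal mice, 0 against 2 virgin mice, 44 against 3 pregnant mice, and 11 to 94 with single mice left out. For genotype, 0 became 886 with DESeq2, 10 with no low-count filter, and 0 to 127 with single mice left out, the highest without p53L, which leaves v53L alone in its group and assumed to vary like the other mice. Of the 6 response genes, tumor calls rose from 0 to 2 with DESeq2, 1 with limma and 1 against all 7 luminal mice. Of the pathway lists, tumor calls rose from 0 to 9 with DESeq2, 2 with no low-count filter, 4 with limma, 2 with library size alone, 3 against all 7 luminal mice and 0 to 1 with single mice left out. Pathway calls rose from 0 to 2 with DESeq2 in pregnancy and in genotype, and to between 0 and 2 for genotype with single mice left out. The cause was not tested.

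Signs turned in few cases. The pregnancy difference of *Dusp6*, 0.01 (log2), was -0.0263 with RLE size factors, -0.0264 with DESeq2, -0.0335 with library size alone and -0.0139 without the genotype covariate, and ran from -0.56 to 0.88 with single mice left out. That of *Etv5* ran from -0.62 to 1.39 and was negative without v53L or without p53L. The tumor difference was -0.25 for *Fgfr2* against all 7 luminal mice, 0.39 against the 2 virgin mice and 5.30 against the 3 pregnant mice, and with single mice left out it ran from -2.89 to 2.95 for *Fgfr2*, -3.91 to 2.79 for *Fgfr3* and -0.10 to 0.69 for *Dusp6*. The mean share of pregnant cells with *Fgfr2*, 6.34%, was 12.1% with no thinning and 2.69% at 5 reads or more. With 10 CPM added, 2 of the 5 genes most like *Fgfr2* were shared. For the response genes, 182 other values kept their direction and side of the threshold and 4 passed it only under an alternative. Library size alone moved the median of all genes from 0.06 to 0.20 for tumors and from 0.13 to 0.30 for genotype. Pairing by replicate number was not possible, because the groups compared share fewer than 2. The chips that virgin and pregnant mice shared entered as the block above instead.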

Other observations

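*Fgfr1* lies on chromosome 8, and its neighbors were examined after its tumor values were seen. Against the mean of the luminal mice, *Fgfr1* was higher by 2.20 (log2) in BrT1 and 3.6 in BrT2, with 3.56 in Br53T1 and 1.74 in Br53T2. The 15 neighbors within 500 kb with a mean of at least 5 CPM had medians of 0.64, 0.30, 0.98 and 0.58, with 11, 9, 11 and 12 of them higher than in luminal mice. The adjacent gene *Letm2*, named after its values were seen, was higher by 2.40 in BrT1 and 1.56 in BrT2, with 3.56 in Br53T1 and 1.80 in Br53T2, close to *Fgfr1* in each tumor but BrT2. Over 569 genes of chromosome 8 the medians were 0.62, 0.20, 0.59 and 0.40, and over 10051 autosomal genes 0.26, 0.04, 0.27 and 0.31. Copy number was not analysed here. The study inferred it from the RNA of the single cells and reported many changes on nearly every chromosome of the tumor cells.

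Among the hormone-sensing markers, cells of the virgin mice with at least 4 of them had less *Spry2* and, in 2 of the 3 mice, less *Dusp6* than cells with fewer. *Spry2* was at 73.2, 184 and 83.7 CPM in the former and at 429, 312 and 541 CPM in the latter in vBrL, vBr53L and v53L. *Dusp6* was at 148, 367 and 102 CPM against 863, 319 and 341 CPM. These are the cells with more *Fgfr2*, the limit was set after the values were seen, and the difference was not tested.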
